A study of Homo sapiens with 9 samples.

Results

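Histone-modifying enzymes and the subunits that hold them in their complexes were examined in U937 cells that had received a short hairpin RNA (shRNA) against DEK or an empty vector. The list held 43 genes, chosen by name and matched to array probes by gene identifier. Of these, 41 had a probe on the array, and 37 had at least 1 probe with a detection p under 0.01 on at least 3 of the 9 arrays. The detection p of a probe is its rank against beads that match no human sequence on the same array. In all, 43 of 63 probes of the listed genes were kept, out of 14230 kept probes in the whole series, which stood for 8611 genes with a symbol. The genes fell into 4 classes: deacetylases (8 of 10 listed genes kept, 9 probes), acetyltransferases (7 of 7, 9 probes), methyltransferases (16 of 18, 19 probes) and demethylases (6 of 8, 6 probes). The class names cover partners without catalytic activity of their own, namely SIN3A among the deacetylases and EED, SUZ12, ASH2L, WDR5, RBBP5 and MEN1 among the methyltransferases. No probe was found here for ASH1L and KDM5A, and the probes of HDAC5, HDAC7, NSD1 and KDM6B were detected on too few arrays to be kept.

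DNA in the nucleus is wound around histones, whose tails carry acetyl and methyl groups. Acetyltransferases add acetyl groups, which loosen the contact with DNA and are found at active promoters and enhancers, and deacetylases take them off, usually within corepressor complexes such as SIN3 and NuRD. Methyltransferases and demethylases write and erase methyl groups whose meaning depends on the residue, with marks of active genes laid down by the MLL family and marks of silent genes laid down by Polycomb repressive complex 2 (PRC2). In myeloid cells several of these genes, among them KMT2A, KAT6A and CREBBP, are known as partners in leukemic gene fusions.

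U937 is a human myeloid line that came from a histiocytic lymphoma, and DEK is a nuclear oncoprotein of chromatin. Cells of this 1 line received lentiviral H1 vectors with 1 of 2 hairpins against DEK (shDEK14 or shDEK17) or the matching vector without a hairpin (shEMPTY), were sorted for GFP 48 h later and were grown for 4 more days. Each group held 3 libraries, run on the HumanHT-12 v4 array of Illumina, and the labels number them by experiment, 1 to 3 in every group, without saying whether an experiment was a separate transduction, so a p-value here speaks only of the scatter of these libraries, part of which may be technical. Mean probe intensity ranged from 362.2 to 457.2 per array, and 12729 to 14152 probes were detected.

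The targeted transcript went against the label in 4 of the 9 libraries. Raw DEK intensity was 2360, 359.4 and 2826 in the libraries labelled shDEK14 1 to 3 and 431.6, 1890 and 532.0 in those labelled shDEK17 1 to 3, against 2510, 293.9 and 2580 in those labelled shEMPTY 1 to 3. A gap of 3.55-fold thus separated 4 libraries with DEK below 1000 (the libraries labelled shDEK14 2, shDEK17 1, shDEK17 3 and shEMPTY 2) from 5 with DEK above it, and 3 of the 6 shRNA-labelled libraries lay above. Every direction given below by label therefore concerns the library labelled so, and DEK is used only to describe which values overlap, since it was measured and not assigned. Among other features of the libraries, 13 interferon response genes lay a median of 2.93 log2 units above their mean in shEMPTY 2 and between -0.69 and -0.20 in the other libraries, and 17 ribosome biogenesis and MYC genes lay at -0.55 in shDEK17 1 and -0.31 in shDEK14 3 and between -0.03 and 0.23 elsewhere. Of the myeloid markers 14 of 15 were kept, without CD33, while 1 of 6 T and NK cell markers (NKG7), 1 of 4 B cell markers (CD79A), none of 7 erythroid and megakaryocyte markers and none of 6 epithelial and fibroblast markers were.

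The first comparison asked which histone modifiers differed with the shRNA label. None of the 43 probes did at an adjusted p of 0.05 (limma, Benjamini-Hochberg adjustment over all 14230 probes), in the average of both hairpins against shEMPTY, in either hairpin alone or between the hairpins. Over the whole array the same 4 tests called 0.0% of probes, or 0 each, while an unadjusted p under 0.05 was reached by 429 higher and 339 lower probes in the average contrast (3.01% and 2.38%). The corresponding shares were 2.4% and 2.28% for shDEK14, 2.58% and 1.65% for shDEK17 and 1.15% and 1.06% between the hairpins. Among the members, 2 were higher at that unadjusted level in the average contrast (KMT2A and EP300, 4.65% of the 43), 2 for shDEK14 (the same genes) and 1 for shDEK17 (KMT2A), 0 differed between the hairpins and 0 were lower in any contrast. With the experiment number as a replicate block, 1 member was left at that level for shDEK14. In the average contrast the member count stayed at 2 with that block, median scaling, cyclic loess and array weights. It was 0 with normexp background correction and without background correction. Among probes detected on all 9 arrays, 0 members reached that level in any contrast. With the authors' scaled values, 0 were higher and 1 was lower in the average contrast. EP300 was detected on no shEMPTY array and KMT2A on 1, so both passed the detection filter only with shRNA-labelled arrays, where they were higher. Their place in these counts and in those of separated probes below is thus partly set by the filter and is given as a description. The lowest adjusted p of any member was 0.911 in the average contrast, 0.953 for shDEK14, 0.999 for shDEK17 and 0.9997 between the hairpins. Fitted log2 fold changes of the average ran between -0.35 for KAT2A and 0.52 for EP300, with 25 probes higher and 18 lower and a median of 0.02, against 50.4% higher and a median of 0.00 over all probes. With the deposited table that the authors had scaled, 19 member probes were higher and 24 lower, and the median of all probes stood at -0.03.

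**Figure D1:**
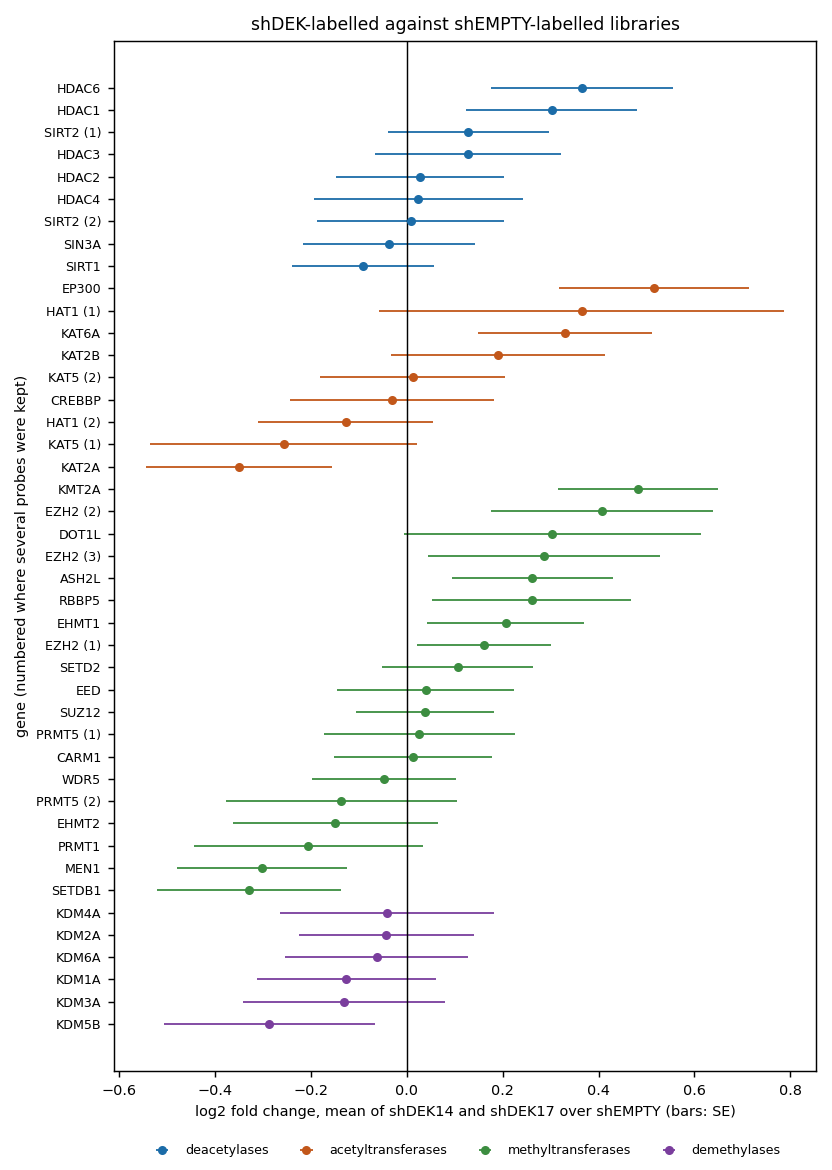
Log2 fold change of each kept probe (points, bars are standard errors) for the mean of shDEK14 and shDEK17 over shEMPTY, with n = 3 libraries per label, ordered by class. Estimates lie between -0.35 (KAT2A) and 0.52 (EP300), all 6 demethylase probes lie left of 0, and no probe passed the adjusted threshold.

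The spread between libraries was close to that of the array as a whole. Over the 9 libraries the member probes had a median SD of 0.27 and a median range of 0.87 on the log2 scale, against 0.27 and 0.82 for all kept probes. The steadiest member was SUZ12, a PRC2 subunit, with an SD of 0.11. Widest was a probe of HAT1, the enzyme that acetylates newly made histone H4, with an SD of 0.74 and a range of 2.06. The standard errors of the average contrast accordingly ran between 0.14 for EZH2 probe ILMN_1652913 and 0.42 for this HAT1 probe.

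**Figure D2:**
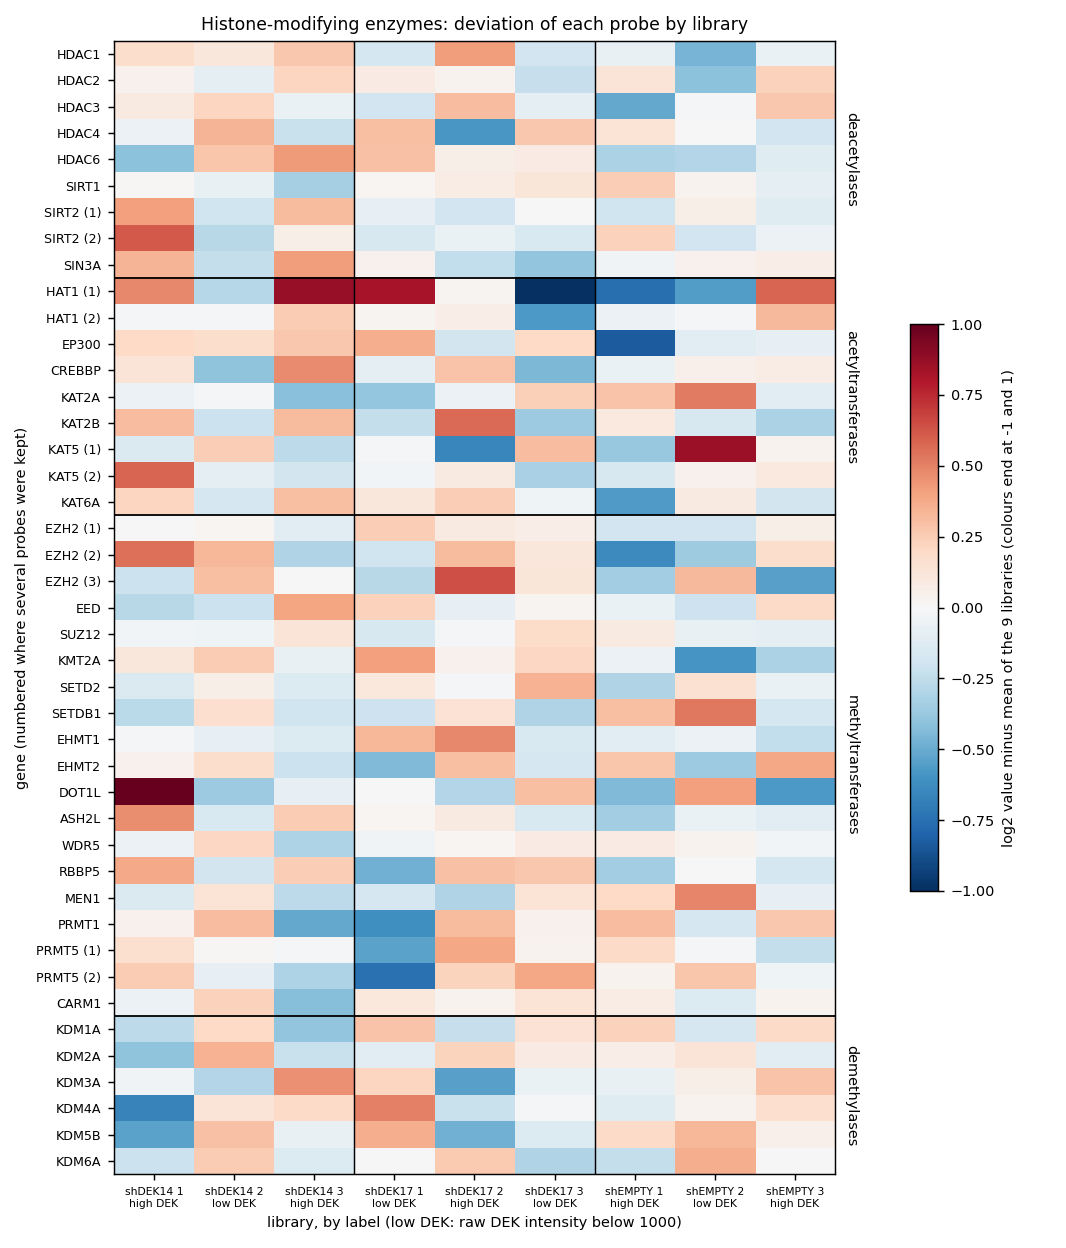
Log2 value of each kept probe minus its mean over the 9 libraries (colour, ending at -1 and 1), by class down the page and by library across it, with DEK below or above 1000 written under each label. HAT1 probe 1 spans 2.06 log2 units, DOT1L stands out in shDEK14 1 and KAT5 probe 1 in shEMPTY 2, and no column is uniformly high or low.

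Among the deacetylases, 7 of 9 probes were higher and 2 lower with the shRNA labels in the average contrast, with a median of 0.03 and none past the threshold. HDAC1, a catalytic subunit of the SIN3, NuRD and CoREST complexes, had log2 intensities of 12.09, 12.03 and 12.18 in shDEK14 and 11.74, 12.33 and 11.72 in shDEK17, against 11.84, 11.45 and 11.84 in shEMPTY. All 3 shDEK14 libraries lay above all 3 shEMPTY libraries, the shDEK17 libraries overlapped them, and shEMPTY 2 was the lowest of all. Its average log2 fold change was 0.30 ± 0.18 (SE, limma adjusted p = 0.944). HDAC2, its close paralog, gave 11.90, 11.77 and 12.07 in shDEK14 and 11.94, 11.89 and 11.62 in shDEK17, against 11.98, 11.45 and 12.09 in shEMPTY, so that the groups overlapped and shEMPTY 2 was again lowest. The average log2 fold change of HDAC2 was 0.03 ± 0.18.

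HDAC6, which acts mainly on tubulin and other proteins of the cytoplasm, was at 6.67, 7.36 and 7.51 in shDEK14 and 7.38, 7.15 and 7.17 in shDEK17, against 6.77, 6.79 and 6.96 in shEMPTY. The 3 shDEK17 libraries lay wholly above shEMPTY, whereas shDEK14 1 was the lowest library. The average log2 fold change was 0.36 ± 0.19 (limma adjusted p = 0.925). HDAC3, the deacetylase of the NCoR and SMRT corepressors, had an average log2 fold change of 0.13 ± 0.19, and its 9 values lay between 9.17 (shEMPTY 1) and 9.99 (shDEK17 2).

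The lower deacetylase probes moved little. SIRT1, a NAD-dependent deacetylase of the nucleus, had 7.85, 7.77 and 7.51 in shDEK14 and 7.85, 7.91 and 7.96 in shDEK17, against 8.08, 7.87 and 7.75 in shEMPTY, an average log2 fold change of -0.09 ± 0.15. SIN3A, the scaffold that carries HDAC1 and HDAC2, had 9.30, 8.72 and 9.38 in shDEK14 and 9.0005, 8.71 and 8.56 in shDEK17, against 8.93, 8.999 and 9.02 in shEMPTY. The shEMPTY values of SIN3A lay inside the range of shDEK14 and towards the upper end of shDEK17, and its average log2 fold change was -0.04 ± 0.18. SIN3A was the member with the lowest p in the positive direction between the hairpins, with a log2 difference of 0.38 ± 0.21 for shDEK14 minus shDEK17 (limma adjusted p = 0.9997), and that difference was -0.06 without the 4 libraries whose DEK goes against the label, which leaves 1 shDEK14, 2 shDEK17 and 2 shEMPTY libraries.

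Acetyltransferases split almost evenly, with 5 of 9 probes higher, 4 lower and a median of 0.01. EP300, a coactivator that acetylates histones at enhancers and promoters, had 5.89, 5.86 and 5.96 in shDEK14 and 6.05, 5.50 and 5.89 in shDEK17, against 4.85, 5.57 and 5.60 in shEMPTY. The shDEK14 libraries lay above shEMPTY and shDEK17 2 lay among the shEMPTY values. The probe was dim, detected on 2 shDEK14, 2 shDEK17 and 0 shEMPTY arrays, so its shEMPTY level is only a bound and the shRNA-labelled mean was at least 1.08-fold higher. That bound sets the shRNA-labelled mean against the higher, per array, of the lowest signal among detected probes and the probe's own signal. The mean includes the shRNA-labelled arrays on which the probe was undetected. The fit gave a log2 fold change of 0.52 ± 0.20 (unadjusted p = 0.0234, limma adjusted p = 0.911). CREBBP, the paralog of EP300, was detected on all arrays and lay between 7.99 (shDEK17 3) and 8.91 (shDEK14 3), with an average log2 fold change of -0.03 ± 0.21.

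KAT6A, also called MOZ, gave 8.70, 8.32 and 8.80 in shDEK14 and 8.61, 8.74 and 8.45 in shDEK17, against 7.93, 8.58 and 8.31 in shEMPTY. The groups overlapped through shEMPTY 2, and the average log2 fold change was 0.33 ± 0.18 (limma adjusted p = 0.938). KAT2A, known as GCN5 and the acetyltransferase of the SAGA complex, ran the other way with 9.12, 9.17 and 8.76 in shDEK14 and 8.80, 9.12 and 9.42 in shDEK17, against 9.47, 9.70 and 9.07 in shEMPTY. All 6 shRNA-labelled values lay below shEMPTY 1 and shEMPTY 2 but overlapped through shEMPTY 3, and the average log2 fold change was -0.35 ± 0.19 (limma adjusted p = 0.938). KAT2B, its paralog known as PCAF, had an average log2 fold change of 0.19 ± 0.22, opposite in sign to KAT2A, and neither passed the test.

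HAT1 and KAT5, the catalytic subunit of the TIP60 complex, had probes that disagreed in sign. HAT1 probe ILMN_1693905 was at 9.71, 8.95 and 10.11 in shDEK14 and 10.06, 9.27 and 8.05 in shDEK17, against 8.48, 8.68 and 9.82 in shEMPTY, for an average log2 fold change of 0.36 ± 0.42. HAT1 probe ILMN_1725244 was at 10.70, 10.70 and 10.96 in shDEK14 and 10.74, 10.78 and 10.14 in shDEK17, against 10.66, 10.70 and 11.04 in shEMPTY, for -0.13 ± 0.18. Both probes had their lowest value in shDEK17 3, but the first varied far more and the groups overlapped on both. KAT5 probe ILMN_1759789 had 6.51, 6.90 and 6.39 in shDEK14 and 6.64, 5.998 and 6.97 in shDEK17, against 6.27, 7.51 and 6.69 in shEMPTY. The interferon-high library shEMPTY 2, which also had low DEK, held its highest value. The log2 fold change of this probe, -0.26 ± 0.28, became 0.09 without that library. The part of the interferon response or of the DEK level in this was not tested. KAT5 probe ILMN_2414366 showed 6.62, 5.95 and 5.86 in shDEK14 and 6.02, 6.13 and 5.72 in shDEK17, against 5.88, 6.08 and 6.14 in shEMPTY, a log2 fold change of 0.01 ± 0.19.

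Methyltransferases and their partners counted 13 of 19 probes higher and 6 lower, with a median of 0.04. KMT2A, the MLL1 enzyme that methylates lysine 4 of histone H3, had the lowest p of any member in the average contrast. It was at 5.98, 6.12 and 5.80 in shDEK14 and 6.28, 5.91 and 6.07 in shDEK17, against 5.81, 5.28 and 5.55 in shEMPTY. The 3 shDEK17 libraries lay above shEMPTY, shDEK14 3 lay just under shEMPTY 1, and shEMPTY 2 was lowest. The probe was dim and was detected on 3 shDEK14, 3 shDEK17 and 1 shEMPTY arrays. Its log2 fold change was 0.48 ± 0.17 in the average (unadjusted p = 0.0136, limma adjusted p = 0.911) and 0.54 ± 0.19 for shDEK17 (limma adjusted p = 0.999).

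The proteins that assemble with MLL enzymes did not share a sign. ASH2L, a core subunit, had 10.24, 9.63 and 10.03 in shDEK14 and 9.80, 9.87 and 9.62 in shDEK17, against 9.43, 9.71 and 9.67 in shEMPTY, with overlap and an average log2 fold change of 0.26 ± 0.17 (limma adjusted p = 0.948). RBBP5 and WDR5, the other core subunits on the list, gave 0.26 ± 0.21 and -0.05 ± 0.15. MEN1, which encodes menin and tethers MLL enzymes to chromatin, had 6.38, 6.66 and 6.27 in shDEK14 and 6.35, 6.22 and 6.66 in shDEK17, against 6.72, 7.01 and 6.44 in shEMPTY. Its groups overlapped through shEMPTY 3, and its average log2 fold change was -0.30 ± 0.18 (limma adjusted p = 0.939).

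EZH2, the catalytic subunit of PRC2, was read by 3 probes with average log2 fold changes of 0.16 ± 0.14, 0.41 ± 0.23 and 0.29 ± 0.24, all positive and none past the threshold. On the brightest, ILMN_1652913, the values were 8.03, 8.05 and 7.92 in shDEK14 and 8.27, 8.12 and 8.09 in shDEK17, against 7.83, 7.84 and 8.08 in shEMPTY, so that the shDEK17 libraries lay above shEMPTY by a narrow margin over shEMPTY 3. The dim probe ILMN_2364529, among the 5 widest in range, had 5.58, 6.10 and 5.81 in shDEK14 and 5.53, 6.45 and 5.92 in shDEK17, against 5.45, 6.13 and 5.26 in shEMPTY, with overlap. EED and SUZ12, the partners that EZH2 needs for activity, both had an average of 0.04 (SE 0.18 and 0.14).

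The 3 listed enzymes that methylate lysine 9 of histone H3 were dim on this array. SETDB1 had 5.78, 6.21 and 5.84 in shDEK14 and 5.84, 6.19 and 5.74 in shDEK17, against 6.35, 6.57 and 5.87 in shEMPTY, with an average log2 fold change of -0.33 ± 0.19 (limma adjusted p = 0.939). It overlapped through shEMPTY 3. EHMT1, which pairs with EHMT2, was detected on 3 arrays and on none of shEMPTY, with 5.70, 5.64 and 5.59 in shDEK14 and 6.06, 6.20 and 5.57 in shDEK17, against 5.62, 5.67 and 5.48 in shEMPTY. It passed the filter only through shRNA-labelled arrays. By the same bound as for EP300, its shRNA-labelled mean was at least 1.03-fold higher than shEMPTY. By hairpin the bound was 1.14-fold for shDEK17 but 0.93-fold for shDEK14, which shows no increase. The difference of EHMT1 between the hairpins was -0.30 ± 0.19 for shDEK14 minus shDEK17 (limma adjusted p = 0.9997), the lowest p in that direction among the members. EHMT2 had an average log2 fold change of -0.15 ± 0.21.

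DOT1L, which methylates a lysine in the globular core of histone H3, ranged most among the methyltransferases. Its values were 6.92, 5.52 and 5.80 in shDEK14 and 5.88, 5.59 and 6.19 in shDEK17, against 5.44, 6.29 and 5.30 in shEMPTY, with shDEK14 1 highest and overlap throughout. The probe was detected on 4 arrays, and its average log2 fold change was 0.30 ± 0.31. The listed arginine methyltransferases varied with little relation to the label. PRMT5, which makes symmetric dimethylarginine, had 1 probe at 8.89, 8.74 and 8.71 in shDEK14 and 8.19, 9.12 and 8.76 in shDEK17, against 8.92, 8.72 and 8.49 in shEMPTY, for 0.03 ± 0.20. Its other probe, at 9.48, 9.15 and 8.92 in shDEK14 and 8.48, 9.46 and 9.62 in shDEK17, against 9.27, 9.51 and 9.19 in shEMPTY, gave -0.14 ± 0.24. Both PRMT5 probes were lowest in shDEK17 1, as was PRMT1, the main source of asymmetric dimethylarginine, at 9.34 there and between 9.44 and 10.27 elsewhere. That library also had the lowest ribosome biogenesis and MYC genes, at a median of -0.55, and their part in these values was not tested.

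All 6 demethylase probes were lower in the average contrast, with a median of -0.09 and a range between -0.29 and -0.04, smaller than their own standard errors for 5 of the 6. KDM5B, which removes methyl groups from lysine 4 of histone H3, was at 7.35, 8.17 and 7.81 in shDEK14 and 8.25, 7.40 and 7.75 in shDEK17, against 8.07, 8.22 and 7.93 in shEMPTY. In each hairpin at least 1 library reached the shEMPTY range, so the groups overlapped, and the log2 fold change was -0.29 ± 0.22 (limma adjusted p = 0.948). KDM1A, or LSD1, the demethylase of the CoREST complex that also holds HDAC1, had 9.91, 10.38 and 9.78 in shDEK14 and 10.46, 9.95 and 10.32 in shDEK17, against 10.40, 10.01 and 10.37 in shEMPTY. The 4 lowest values of KDM1A were those of shDEK14 1, shDEK14 3, shDEK17 2 and shEMPTY 2, the 4 libraries whose DEK goes against the label. Its average log2 fold change was -0.13 ± 0.19 (limma adjusted p = 0.975). The lysine 9 demethylases KDM3A and KDM4A gave -0.13 ± 0.21 and -0.04 ± 0.22, KDM2A, whose target is the residue that SETD2 methylates, gave -0.04 ± 0.18, and KDM6A, which acts on lysine 27, gave -0.06 ± 0.19.

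The shared sign of the demethylases depended on the libraries entered. It held for 6 of 6 probes under every scaling tried, but leaving out 1 library turned up to 2 of 6 (2 without shEMPTY 2 or without shDEK14 1), and 4 of 6 were higher, with a median of 0.12, without the 4 libraries whose DEK goes against the label, where shDEK14 is 1 library. By library, the median demethylase probe lay -0.33, 0.23 and -0.10 from its mean in shDEK14 1 to 3 and 0.25, -0.23 and -0.04 in shDEK17 1 to 3, against -0.0049, 0.09 and 0.11 in shEMPTY 1 to 3. Within each hairpin the values thus differed in sign between libraries. A further 8 demethylases outside the list ran the other way on balance, with 6 higher, 2 lower and a median of 0.13 in the average contrast, and none passed the adjusted threshold.

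**Figure D3:**
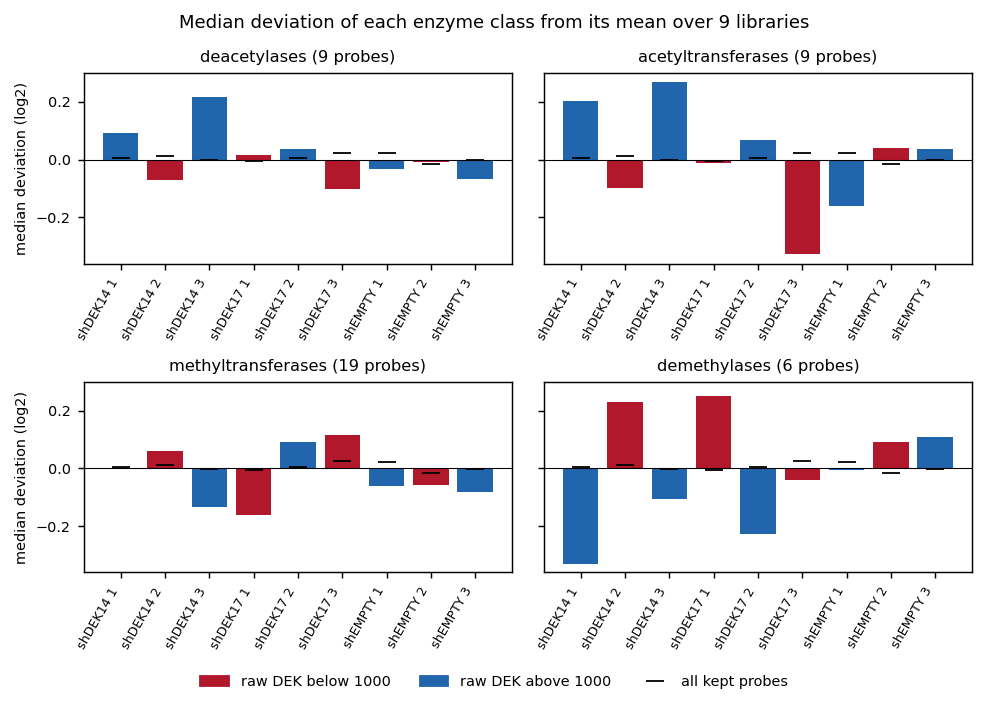
Median deviation of the kept probes of each class from their mean over the 9 libraries (bars, log2 units), coloured by raw DEK below or above 1000, with the median of all kept probes as a black tick. Demethylases were at -0.33, -0.10 and -0.23 in the high-DEK shRNA-labelled libraries shDEK14 1, shDEK14 3 and shDEK17 2, and acetyltransferases were at -0.33 in shDEK17 3 and 0.27 in shDEK14 3.

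Each hairpin was then set against the same 3 shEMPTY libraries, which the 2 comparisons share. No member had all 6 shRNA-labelled libraries above or below all 3 shEMPTY libraries, while 1.7% of all probes did so upwards and 1.39% downwards. For shDEK14, 2 member probes (HDAC1 and EP300, 4.65%) lay wholly above shEMPTY and 0 below, against 5.87% and 5.35% of all probes. For shDEK17, 3 (HDAC6, KMT2A and EZH2 probe ILMN_1652913, 6.98%) lay wholly above and 0 below, against 4.62% and 3.95%. The lowest p among higher members belonged to EP300 for shDEK14, at 0.56 ± 0.23, and to KMT2A for shDEK17, at 0.54 ± 0.19. Among lower members it belonged to KAT2A for shDEK14, at -0.40 ± 0.22, and to MEN1 for shDEK17, at -0.31 ± 0.20 (limma adjusted p = 0.953 for both shDEK14 values and 0.999 for both shDEK17 values).

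Sorting the libraries by measured DEK, as a description without a test, left 2 of 43 member probes that did not overlap. SETD2, the enzyme that trimethylates histone H3 along the bodies of transcribed genes, was at 9.22, 9.27, 9.50 and 9.31 in the low-DEK libraries shDEK14 2, shDEK17 1, shDEK17 3 and shEMPTY 2, against 9.01, 9.02, 9.14, 8.86 and 9.09 in the high-DEK libraries shDEK14 1, shDEK14 3, shDEK17 2, shEMPTY 1 and shEMPTY 3. The SIRT2 probe ILMN_2398711, for a NAD-dependent deacetylase found mostly in the cytoplasm, was at 5.63, 5.74, 5.75 and 5.72 in the same low-DEK libraries, against 6.52, 5.97, 5.84, 6.14 and 5.85 in the high-DEK ones. The margins were narrow, with 9.22 against 9.14 for SETD2 and 5.75 against 5.84 for SIRT2, and the SIRT2 probe was detected on only 5 arrays. These were 2 shDEK14, 0 shDEK17 and 3 shEMPTY arrays, so it passed the detection filter only with high-DEK arrays, where it was higher. Its place in this and the later counts of probes separated by DEK is thus partly set by the filter. A brighter SIRT2 probe, ILMN_1723494, overlapped, with 7.21, 7.33, 7.42 and 7.47 in low-DEK libraries, against 7.82, 7.73, 7.22, 7.21 and 7.29 in high-DEK libraries. The share that did not overlap was 2.33% in each direction among members, against 1.05% higher and 1.19% lower among all probes, which at 43 probes is a difference of 1 probe or less.

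Within the 6 shRNA-labelled libraries alone, 3 had low and 3 high DEK, and 12 member probes did not overlap. Higher in the low-DEK libraries were 6 (HDAC4, KAT5 probe ILMN_1759789, KMT2A, SETD2, CARM1 and KDM1A) and lower were 6 (HDAC1, SIRT2 probe ILMN_2398711, CREBBP, KAT2B, KAT6A and ASH2L), 14.0% each way, against 9.63% and 8.07% of all probes. HDAC4, a deacetylase that shuttles between nucleus and cytoplasm, was at 8.04, 8.01 and 7.97 in the low-DEK libraries shDEK14 2, shDEK17 1 and shDEK17 3, against 7.64, 7.48 and 7.12 in the high-DEK libraries shDEK14 1, shDEK14 3 and shDEK17 2. KDM1A had 10.38, 10.46 and 10.32 in those low-DEK libraries, against 9.91, 9.78 and 9.95 in the high-DEK ones. Both were well separated there, but by the labels alone neither was.

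On the other side, HDAC1 was at 12.03, 11.74 and 11.72 in the low-DEK shRNA-labelled libraries, against 12.09, 12.18 and 12.33 in the high-DEK ones. KAT2B was at 8.26, 8.23 and 8.11 in the low-DEK libraries, against 8.78, 8.79 and 9.04 in the high-DEK ones. KAT6A and ASH2L did likewise. In the direction of HDAC4 and KDM1A, CARM1, which methylates arginines of histone H3 as a coactivator, was at 10.54, 10.41 and 10.45 in the low-DEK libraries, against 10.24, 9.88 and 10.34 in the high-DEK ones.

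The shEMPTY libraries did not continue these splits for most members. The low-DEK library shEMPTY 2 had 10.01 for KDM1A and 10.17 for CARM1, below shEMPTY 1 and shEMPTY 3 with 10.40 and 10.37 for KDM1A and 10.38 and 10.34 for CARM1. For KAT6A it had 8.58, above 7.93 and 8.31 in shEMPTY 1 and shEMPTY 3. HDAC1 went with its split within shEMPTY, at 11.45 in shEMPTY 2 against 11.84 and 11.84. So did KAT5 probe ILMN_1759789, at 7.51 against 6.27 and 6.69, but over all 9 libraries both overlapped. Only SETD2 and the dim SIRT2 probe kept low and high DEK apart in all 9 libraries. shEMPTY 2 was also the interferon-high library, at a median of 2.93, and the part of that response in its values was not tested.

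**Figure D4:**
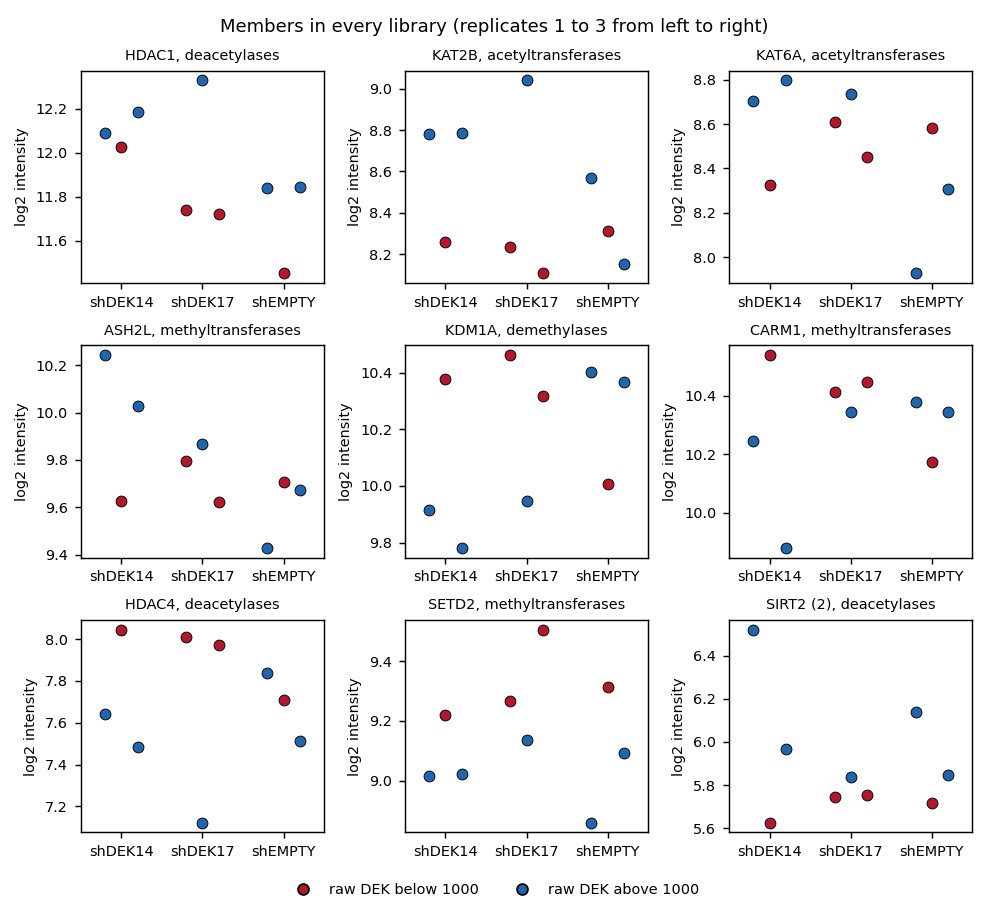
Log2 intensity of 9 member probes in every library, by label across and with raw DEK below 1000 in red and above 1000 in blue (1 point per library). In the shRNA-labelled columns the red points of KDM1A (10.32 to 10.46) lie above the blue ones (9.78 to 9.95), while in shEMPTY the red point (10.01) lies below the blue ones.

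When low-DEK shRNA-labelled libraries were set beside the 2 high-DEK shEMPTY libraries, 9 member probes lay wholly above (20.9%) and 4 below (9.3%), against 10.1% and 9.91% of all probes. The 9 were those of HDAC4, HDAC6, EP300, KAT6A, KMT2A, SETD2, DOT1L and CARM1 and EZH2 probe ILMN_2364529, and the 4 were HDAC2, CREBBP, EHMT2 and the dim SIRT2 probe. For the high-DEK shRNA-labelled libraries beside the same 2 shEMPTY libraries, 8 member probes lay above (18.6%) and 4 below (9.3%), against 13.5% and 15.0% of all probes. The 8 were HDAC1, CREBBP, KAT2B, KAT6A, DOT1L, ASH2L, RBBP5 and the same EZH2 probe, and the 4 were MEN1, CARM1, KDM1A and KDM5B. CREBBP and CARM1 thus lay on opposite sides of these shEMPTY libraries in the low-DEK and high-DEK hairpin libraries. With 3 libraries against 2, such separation was frequent over the array. EP300, KMT2A, DOT1L and this EZH2 probe were each detected on at most 1 shEMPTY array. They passed the filter only with shRNA-labelled arrays, so the upward shares that count them are partly set by the filter. The same holds for the downward share that counts the dim SIRT2 probe, which passed only with high-DEK arrays.

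Promoter sequence is shown for the members on which the DEK description turned. SETD2 and, by its dim probe only, SIRT2 kept low and high DEK apart in 9 libraries. HDAC1 and KDM1A are partners in CoREST that lay in opposite directions within the shRNA-labelled libraries. Each run covers 300 bases around the annotated start of the gene (RefSeq, GRCh38.p14), read 5′ to 3′ on the strand of the gene, which is minus for SETD2 (chr3:47164064-47164363) and SIRT2 (chr19:38899569-38899868) and plus for HDAC1 (chr1:32291833-32292132) and KDM1A (chr1:23019218-23019517). Capitals mark matches to the GC box GGGCGG on either strand.
SETD2: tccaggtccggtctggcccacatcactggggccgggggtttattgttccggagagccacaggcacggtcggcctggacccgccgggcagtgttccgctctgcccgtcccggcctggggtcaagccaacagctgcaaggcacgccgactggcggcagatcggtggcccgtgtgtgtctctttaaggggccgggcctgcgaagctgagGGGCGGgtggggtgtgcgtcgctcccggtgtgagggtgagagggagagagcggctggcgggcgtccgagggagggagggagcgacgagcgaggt
SIRT2: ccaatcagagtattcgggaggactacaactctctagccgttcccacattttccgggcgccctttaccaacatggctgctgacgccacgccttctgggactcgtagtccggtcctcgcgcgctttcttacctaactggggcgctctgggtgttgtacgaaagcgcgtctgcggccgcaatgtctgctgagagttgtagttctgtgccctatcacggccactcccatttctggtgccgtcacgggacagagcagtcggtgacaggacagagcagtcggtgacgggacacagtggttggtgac
HDAC1: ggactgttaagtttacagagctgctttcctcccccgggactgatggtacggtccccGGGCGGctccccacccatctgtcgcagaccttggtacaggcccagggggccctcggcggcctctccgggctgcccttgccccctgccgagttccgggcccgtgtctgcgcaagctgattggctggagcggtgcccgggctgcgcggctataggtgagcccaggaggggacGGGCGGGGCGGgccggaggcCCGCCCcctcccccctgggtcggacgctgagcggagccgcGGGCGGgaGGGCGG
KDM1A: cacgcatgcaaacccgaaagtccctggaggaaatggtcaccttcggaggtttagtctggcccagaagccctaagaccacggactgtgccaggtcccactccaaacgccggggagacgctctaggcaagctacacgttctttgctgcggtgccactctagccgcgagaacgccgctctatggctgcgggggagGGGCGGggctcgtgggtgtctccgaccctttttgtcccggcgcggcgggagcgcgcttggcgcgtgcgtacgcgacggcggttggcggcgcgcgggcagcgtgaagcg
HDAC1 held 6 matches, some overlapping, SETD2 and KDM1A held 1 each and SIRT2 held 0. A GC box was in 22 of the 34 member promoters that the RefSeq table held (64.7%), against 45.0% of 35116 promoter windows of the same length. Those windows were not limited to genes detected on the array, whereas the members were. Another 3 motifs were searched on both strands, the E-box CACGTG (5 members, 14.7%, against 7.26% of all windows), the ETS core GGAAGT (5 members, 14.7%, against 22.8%) and the RUNX core TGTGGT (1 member, 2.94%, against 13.1%), and these 4 promoters held none of them.

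Beyond the listed genes, 146 further histone modifiers and complex partners were looked up, of which 102 were kept, each by its brightest probe. In the average contrast 59 were higher and 43 lower, with a median of 0.01, and 0 passed the adjusted threshold. An unadjusted p under 0.05 was reached by 2 of the 102 in each direction, against 3.01% higher and 2.38% lower over all probes. Higher at that level were TBL1X, an NCoR corepressor subunit, and the demethylase KDM4C, and lower were the ATPase RUVBL2 of the TIP60 and INO80 complexes and the arginine methyltransferase PRMT7. PRMT7 was detected on few arrays, and its shRNA-labelled values all lay below shEMPTY. Its place in these counts and among the separated genes below may thus be partly set by the filter. TBL1X was at 8.13, 8.35 and 8.03 in shDEK14 and 8.0004, 7.99 and 7.89 in shDEK17, against 7.72, 7.62 and 7.62 in shEMPTY, with a log2 fold change of 0.41 ± 0.14 (limma adjusted p = 0.911). RUVBL2 was at 9.68, 9.58 and 9.35 in shDEK14 and 9.54, 9.37 and 9.59 in shDEK17, against 9.98, 9.94 and 9.80 in shEMPTY, with a log2 fold change of -0.39 ± 0.14 (limma adjusted p = 0.911). In both genes the 6 shRNA-labelled libraries did not overlap shEMPTY, whatever their DEK.

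KMT2B, the nearest relative of KMT2A, likewise had all shRNA-labelled libraries above shEMPTY, with 6.90, 7.16 and 6.97 in shDEK14 and 7.03, 6.85 and 7.06 in shDEK17, against 6.73, 6.78 and 6.71 in shEMPTY. Its log2 fold change was 0.26 ± 0.14 (limma adjusted p = 0.938). KAT14, PRMT6 and PRMT7 lay wholly below, so that 2 of the 102 further genes were separated upwards and 4 downwards by label, against 1.7% and 1.39% of all probes. KMT2C, another MLL-family enzyme, gave 0.17 ± 0.15, and DPY30, which binds ASH2L in these complexes, gave -0.30 ± 0.14 (limma adjusted p = 0.925).

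Of the other wider genes, the deacetylases HDAC8, SIRT7 and HDAC9 had average log2 fold changes of 0.14 ± 0.14, 0.13 ± 0.15 and -0.40 ± 0.22. Among further acetyltransferases, GTF3C4 and CDYL had 0.12 ± 0.21 and 0.08 ± 0.17, and NAA50 and KAT14 had -0.32 ± 0.17 and -0.12 ± 0.14. PRMT7 and PRMT3 were at -0.43 ± 0.17 and -0.25 ± 0.15, and PRMT7 was detected on 3 arrays. The demethylases KDM4C and KDM3B were at 0.47 ± 0.20 and 0.25 ± 0.20, and the hydroxylases listed with them, RIOX1 and RIOX2, at -0.19 ± 0.15 and -0.00 ± 0.14. MTA2, a NuRD subunit that binds HDAC1, was at 0.29 ± 0.15. By DEK, ING4 and KANSL1 were higher and WDR77, the partner of PRMT5, was lower in all 4 low-DEK libraries than in all 5 high-DEK libraries. These were 2 and 1 of the 102 further genes, against 1.05% and 1.19% of all probes.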

How the data were processed

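Total RNA of 9 U937 libraries (3 each of shDEK14, shDEK17 and shEMPTY) had been hybridised to Illumina HumanHT-12 v4 arrays. The authors deposited average bead intensities, neither normalized nor background-subtracted, and beside each a detection p-value that sets the probe against negative control beads. They also deposited a table of the same intensities multiplied by 1 factor per array. It was linear and not centred, with a mean of 406.2 and medians between 110.1 and 119.3 per array, and how the factors were set is not stated in the sources read here. Here, the unscaled intensities were corrected and quantile-normalized with neqc (offset 16, negative controls inferred from the detection p-values) in limma 3.58.1 under R 4.3.3, since the scaled table held no detection calls, and the scaled values served as an alternative. Probes detected at p under 0.01 on 3 arrays entered 1 fit over all 9 libraries with a mean per label, moderated by eBayes, with Benjamini-Hochberg adjustment over 14230 probes and a threshold of 0.05. The labels give each number, 1 to 3, as an experiment shared by the groups, but not what an experiment had in common, and deviations of same-numbered libraries from their group means correlated between -0.38 and 0.25. The study's methods name no block, so the fit had none, and the experiment number as a replicate block was an alternative. The steps were tested on simulated data. The number of arrays limits the precision.

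The gene list and all lists of further genes were chosen with earlier results of these data known. Named were, by class, the genes of lowest p in each direction of the average contrast, members that did not overlap between labels or between low and high DEK, the 5 widest probes, the lowest p in each other contrast, genes with probes of opposite sign, and up to 2 genes per direction of each wider list. Where a gene had several probes, the one of highest mean stood for it in this ranking. Members named for other splits by DEK were named after their values were seen. Splits by DEK were described by overlap only. Alternatives covered background correction, normalization, probe filter, 1 probe per gene, a replicate block, array weights, the variance model, fits on the compared groups, the methods' t-test, and libraries left out. A probe undetected on all arrays of a group was given a bound. Gene names came from the platform annotation, matched by identifier to RefSeq (GRCh38.p14). Promoters were taken from RefSeq for 34 of the 37 genes.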

Additional observations from a re-analysis of the deposited data

How the results depend on the processing

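No member probe passed the adjusted threshold under any alternative. Over all probes the count called was 0 in every contrast and became 1 with the methods' t-test in the average contrast, 2 and 1 in the average and shDEK17 contrasts without the 4 libraries whose DEK goes against the label (1 shDEK14 library was left, assumed to vary like the other groups), and 6, 1 and 10 in the shDEK14, shDEK17 and between-hairpin contrasts without all libraries numbered 2. The replicate block called 0 probes in each contrast. The block changed no call at the adjusted threshold. The DEK gap of 2.26 log2 units was 2.06 with the authors' scaled values and 2.03 without background correction. Members detected numbered 43, against 47 at a detection p of 0.05 and 33 on all 9 arrays. Member probes separated by DEK within the shRNA-labelled libraries numbered 12, and 17, 14 and 12 with the authors' values, cyclic loess and no background correction, a comparison added after seeing the data. The shares of all probes are given only for the main values, at 9.63% higher and 8.07% lower. The change in these counts is therefore not read as a result about the members.

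Of 621 comparisons over 25 named member results, 593 kept their sign and 28 reversed, and 14 results never reversed. The log2 values that reversed are as follows, and the cause was not tested. Without the 4 libraries whose DEK goes against the label, KAT5 became 0.37 (ILMN_1759789) and -0.11 (ILMN_2414366), MEN1 0.00047, KDM5B 0.084, HAT1 ILMN_1693905 -0.15, PRMT5 ILMN_1811955 -0.10 and SIN3A between the hairpins -0.059. Without all libraries numbered 1, HAT1 ILMN_1693905 became -0.16 and KAT5 ILMN_2414366 -0.20. Without those numbered 2, SIN3A became 0.086, KAT5 ILMN_1759789 0.15 and PRMT5 ILMN_1811955 -0.066. Without those numbered 3, HAT1 ILMN_1725244 became 0.052 and PRMT5 ILMN_1811955 -0.085. With the authors' values KAT5 ILMN_2414366 became -0.019 and PRMT5 ILMN_1811955 -0.0079.
Leaving out each library in turn gave ranges that passed through zero for SIRT1 (-0.17 to 0.00022), SIN3A (-0.098 to 0.065), KAT5 ILMN_1759789 (-0.53 to 0.087), KAT5 ILMN_2414366 (-0.11 to 0.083), PRMT5 ILMN_1811955 (-0.083 to 0.15) and PRMT5 ILMN_2403889 (-0.25 to 0.039). Depth beyond the detection calls is not recorded for arrays, and the 10 member probes detected on fewer than 9 arrays lie close to background.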
